A study of Mus musculus with 6 samples.

Results

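The NR4A nuclear receptor genes Nr4a1, Nr4a2 and Nr4a3 and the immediate early gene Arc were followed in 6 Affymetrix expression arrays of NIH3T3 cells, a mouse fibroblast line. They were chosen by name: all probe sets annotated to these 4 genes were taken, 11 in all, of 18193 genes measured. Nr4a1 had 1 probe set, Nr4a2 had 6, Nr4a3 had 3 and Arc had 1. The arrays comprised 3 of cells with mutant LPAR1 and 3 of cells with wild-type LPAR1, a receptor for lysophosphatidic acid, a growth-stimulating lipid of serum. Each genotype was harvested at 0, 60 and 120 minutes, with a single array at each time. The labels give neither the mutation nor how it was introduced, and they do not describe the stimulus, the cultures or any clones. P-values therefore measure only the spread between these arrays, which may be technical, and no single genotype and time has a spread of its own. That spread is how far the genotypes disagree in their course over time, so any true difference in course is counted in it.

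NR4A proteins are orphan members of the nuclear receptor superfamily. They bind DNA alone at the NBRE element, or as dimers, and their activity is set mainly by how much of the protein is made rather than by a ligand. All 3 are immediate early genes, transcribed within minutes of a growth factor, a hormone or a depolarising signal, often through CREB at cyclic AMP response elements (CRE), and Nr4a1 also through MEF2 factors. Arc is best known from neurons, where synaptic activity turns it on through SRF, MEF2 and CREB. Its protein descends from a retrotransposon Gag, promotes endocytosis of AMPA receptors and is degraded quickly. Serum also induces these genes in fibroblasts.

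Promoter sequences from RefSeq (assembly GRCm38.p6) were available for the 3 receptor genes, and they are shown because all 3 genes rose in the first hour. Each window runs 5′ to 3′ on the strand of the gene, from 250 bases before the annotated start to 50 after it. Capitals mark the CRE half-site, TGACG or its complement CGTCA, and, in Nr4a2, 1 match to the MEF2 box. The windows lie at chr15:101266596-101266895 on the plus strand for Nr4a1, chr2:57123954-57124253 on the minus strand for Nr4a2 and chr4:48045055-48045354 on the plus strand for Nr4a3.

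Nr4a1: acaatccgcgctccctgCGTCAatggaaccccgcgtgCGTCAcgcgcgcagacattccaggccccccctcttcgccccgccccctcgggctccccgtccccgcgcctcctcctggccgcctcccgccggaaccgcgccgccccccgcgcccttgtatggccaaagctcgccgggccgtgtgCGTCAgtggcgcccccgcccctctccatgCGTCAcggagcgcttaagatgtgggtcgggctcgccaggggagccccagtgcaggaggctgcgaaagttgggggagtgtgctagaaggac
Nr4a2: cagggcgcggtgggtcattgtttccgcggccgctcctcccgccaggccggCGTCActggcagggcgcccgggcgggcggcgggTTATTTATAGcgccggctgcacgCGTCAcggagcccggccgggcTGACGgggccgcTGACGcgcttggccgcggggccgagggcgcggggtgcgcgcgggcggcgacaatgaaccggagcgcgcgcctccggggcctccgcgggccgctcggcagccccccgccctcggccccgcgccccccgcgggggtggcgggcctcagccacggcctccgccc
Nr4a3: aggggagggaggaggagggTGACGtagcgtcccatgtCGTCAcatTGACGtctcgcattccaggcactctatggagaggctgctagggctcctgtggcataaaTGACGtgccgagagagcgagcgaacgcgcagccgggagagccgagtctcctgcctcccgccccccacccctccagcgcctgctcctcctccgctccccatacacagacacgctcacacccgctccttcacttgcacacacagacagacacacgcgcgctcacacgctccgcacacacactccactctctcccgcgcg

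Each of the 3 windows held 4 CRE half-sites. Among 32851 promoter windows of the same length, 20.8% held at least 1 half-site on either strand and 0.231% held 4 or more. Counted from the annotated start, the half-sites of Nr4a1 began at -233, -213, -69 and -40. Those of Nr4a2 began at -200, -144, -123 and -111, and those of Nr4a3 at -231, -213, -205 and -147. The Nr4a2 MEF2 box spanned -167 to -158, and 3.19% of all windows held such a box. None of the 3 windows held a full CRE (TGACGTCA, which contains the half-site on both strands and was in 1.79% of all windows), an NBRE (AAAGGTCA, 1.51%), an AP-1 site (TGANTCA, 7.81%) or a CArG box, the SRF element (1.63%). Both strands were searched for every motif, and a match describes letters, not binding.

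Nr4a1, the gene of Nur77, was induced within the first hour and came partly back in the second. Its intensity at 0, 60 and 120 minutes was 434, 5614 and 3959 in mutant cells and 484, 6280 and 4399 in wild-type cells. The 4 later arrays lay far above both 0 minute arrays, and in each genotype the 60 minute array was the highest. On the log2(intensity + 16) scale, on which all log2 differences and folds here are given unless named as ratios of intensity, Nr4a1 rose by 3.65 ± 0.050 (SE) at 60 minutes, 12.6-fold (limma, adjusted p = 5.49e-11). At 120 minutes it was still 3.14 ± 0.050 above 0 minutes, 8.83-fold (limma, adjusted p = 1.57e-10). Between 60 and 120 minutes it fell by 0.51 ± 0.050 (limma, adjusted p = 6.45e-05). In mutant cells the 120 minute array held 70.5% of the 60 minute intensity, against 70.0% in wild-type cells.

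Nr4a2, the gene of Nurr1, rose less steeply and went on rising. Its brightest probe set, 1455034_at, read 327, 682 and 958 at 0, 60 and 120 minutes in mutant cells and 267, 641 and 1097 in wild-type cells. The 3 times did not overlap, and the 120 minute arrays were the highest in both genotypes. The gene rose by 1.12 ± 0.098 (SE) at 60 minutes, 2.17-fold (limma, adjusted p = 3.20e-05), and by 1.74 ± 0.098 at 120 minutes, 3.34-fold (limma, adjusted p = 6.55e-07). The second hour alone added 0.62 ± 0.098 (limma, adjusted p = 0.00119). With the mean of all 6 probe sets in place of the brightest, the 60 minute rise was 0.67 (limma, adjusted p = 0.000260).

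The 6 Nr4a2 probe sets did not all respond. Tested as separate features among 27022 probe sets, 4 of 6 rose at 60 minutes, where 6.02% of all probe sets did, and 5 of 6 rose at 120 minutes, where 13.2% did. In the second hour 4 of 6 rose, where 7.89% of all probe sets did. Set 1447863_s_at read 148, 379 and 520 at 0, 60 and 120 minutes in mutant cells and 173, 320 and 620 in wild-type cells. Set 1450750_a_at read 123, 234 and 297 in mutant cells and 103, 234 and 413 in wild-type cells. Both followed the brightest set, with each later time above the earlier one.

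Set 1450749_a_at was dimmer, at 58.5, 119 and 157 at 0, 60 and 120 minutes in mutant cells and 79.1, 136 and 179 in wild-type cells, and it too rose at each step. Set 1433423_at read 137, 180 and 209 in mutant cells and 114, 122 and 149 in wild-type cells, and its difference from 0 minutes was 0.22 at 60 minutes (limma, adjusted p = 0.206) and 0.45 at 120 minutes (limma, adjusted p = 0.00746). Set 1433422_at, near the filter level of 39.2, read 39.3, 34.0 and 54.5 in mutant cells and 41.6, 41.3 and 28.5 in wild-type cells. That last set showed no shared course over time. Sets 1433422_at and 1433423_at are annotated to another transcript record than the other 4.

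Nr4a3, the gene of Nor1, was near the bottom of the scale at 0 minutes and rose at both steps. Set 1438796_at read 5.71, 209 and 382 at 0, 60 and 120 minutes in mutant cells and 7.07, 299.96 and 629 in wild-type cells. Both 0 minute arrays were below the filter level, and the 3 times did not overlap. The gene rose by 3.57 ± 0.13 (SE) at 60 minutes, 11.9-fold (limma, adjusted p = 4.86e-08), and by 4.50 ± 0.13 at 120 minutes, 22.6-fold (limma, adjusted p = 1.04e-08). The second hour added 0.93 ± 0.13 (limma, adjusted p = 0.000654), a call that was lost with time alone in the model (limma, adjusted p = 0.0746). Because the 0 minute arrays were so dim, the size of the rise depends on the offset: the 60 minute value was 5.09 with an offset of 1 and 2.16 with an offset of 64, and the 120 minute value was 6.06 and 2.98. The other 2 Nr4a3 sets stayed below the filter level on every array, 1421080_at between 8.33 and 12.1 and 1421079_at between 7.74 and 9.73, and were not tested.

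Arc was strongly induced at 60 minutes and lost much of that intensity by 120 minutes. Its probe set read 21.1, 435 and 122 at 0, 60 and 120 minutes in mutant cells and 17.6, 665 and 201 in wild-type cells. The 60 minute arrays were the highest in both genotypes, and the 120 minute arrays lay above both 0 minute arrays, which were below the filter level. Arc rose by 3.97 ± 0.17 (SE) at 60 minutes, 15.7-fold (limma, adjusted p = 1.28e-07). At 120 minutes it was 2.29 ± 0.17 above 0 minutes, 4.89-fold (limma, adjusted p = 3.79e-06). In the second hour it fell by 1.68 ± 0.17 (limma, adjusted p = 6.76e-05), and 28.0% of the 60 minute intensity was left in mutant cells, against 30.2% in wild-type cells. The 60 minute rise was 4.73 with an offset of 1 and 2.85 with an offset of 64.

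**Figure D1:**
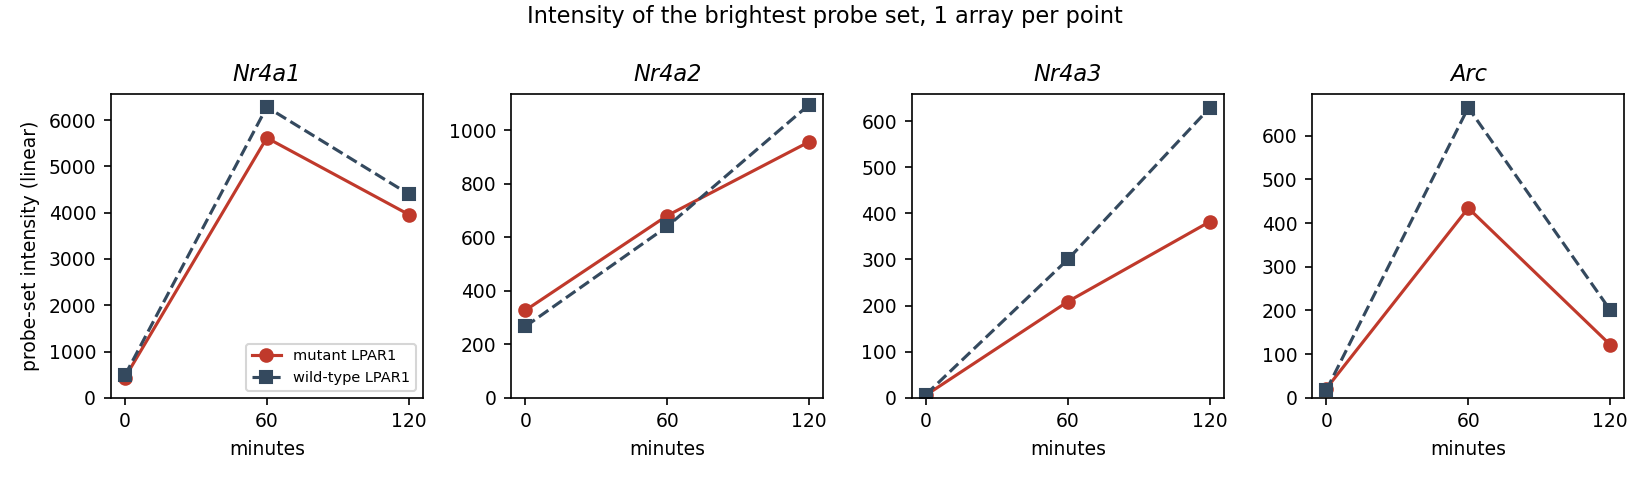
Probe-set intensity (linear axis from 0) against time in minutes for the brightest probe set of each gene, 1 array per point, with mutant LPAR1 as red circles and wild-type LPAR1 as blue squares. Nr4a1 and Arc peak at 60 minutes and Nr4a2 and Nr4a3 are highest at 120 minutes in both genotypes.

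**Figure D2:**
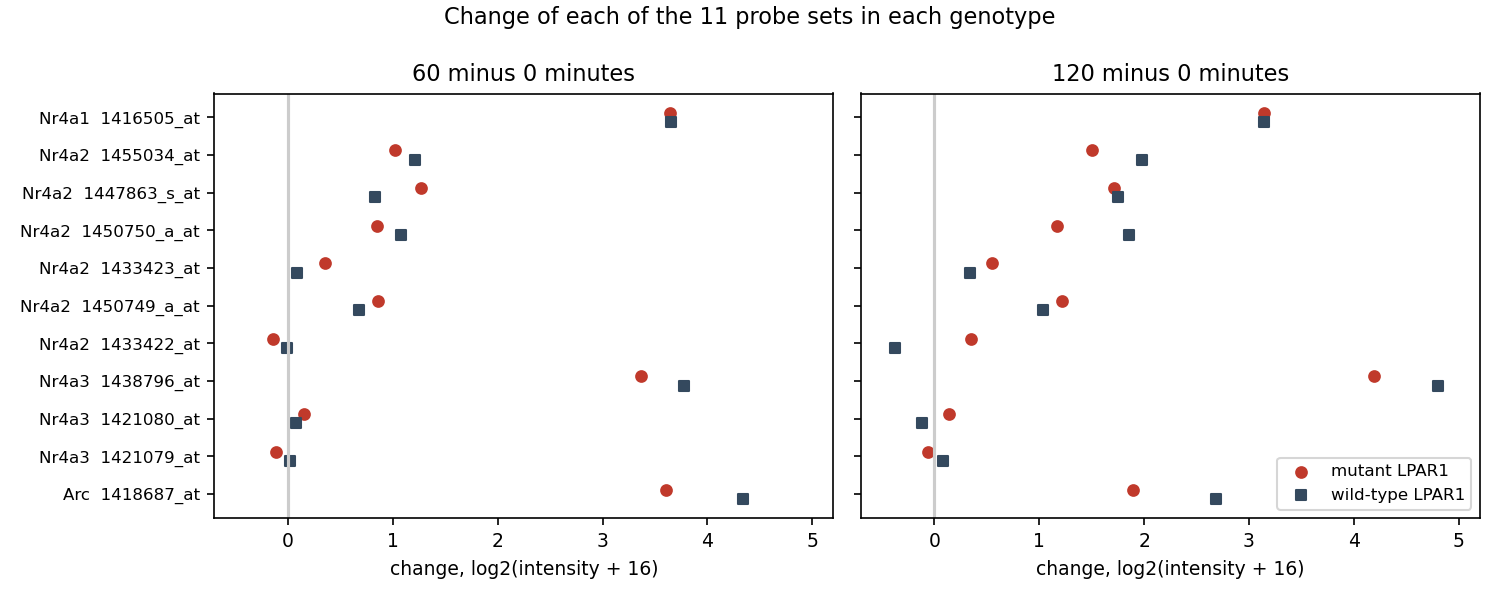
Change from 0 minutes in log2(intensity + 16) for each of the 11 probe sets, at 60 minutes (left) and 120 minutes (right), 1 value per genotype, with mutant LPAR1 as red circles and wild-type LPAR1 as blue squares. In 1433422_at of Nr4a2 and both dim sets of Nr4a3 at least 1 value lies left of 0 and the highest is 0.35, while both values of every other set lie right of 0 in both panels.

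Nr4a1 and Nr4a2 rose at 60 and at 120 minutes, where 7.34% and 16.2% of 10916 genes tested did. Nr4a3 and Arc rose at both times too. They were among the genes tested only through their later arrays, so these shares are no fair background for them. The 60 minute background had 801 higher and 1168 lower genes, and 1015 higher and 622 lower with the arrays set to equal medians. In the second hour Nr4a2 and Nr4a3 rose, with 10.2% of all genes, and Nr4a1 and Arc fell, with 15.0% of all genes. Ranked by the rise at 60 minutes among all genes tested, Nr4a1 was number 14 and Nr4a2 number 123. At 120 minutes Nr4a1 was number 16 and Nr4a2 number 68. No rank is given for Nr4a3 and Arc, whose 0 minute arrays were below the filter level. Both contrasts with 0 minutes share the 0 minute arrays, and the second hour shares the 60 minute arrays with the first. The median over all genes tested was -0.07 at 60 minutes, -0.09 at 120 minutes and -0.02 in the second hour.

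The mean probe-set intensity of an array was 299 to 308, and the number of arrays limits the precision. All 7 fibroblast markers exceeded the filter level on average, with a summed intensity of 46197 to 46702 in mutant cells and 48226 to 49314 in wild-type cells. Neuron markers summed to 152 to 184 in mutant cells and 183 to 185 in wild-type cells, with 3 of 6 above the filter level. The synaptic genes Snap25 and Gria1 and the neuronal nuclear gene Rbfox3 stayed between 1.43 and 16.3 on every array, and Syn1, Camk2a and Syt1 between 33.9 and 70.2. Endothelial markers summed to 84.8 to 97.8 in mutant cells and 45.5 to 55.8 in wild-type cells, with 1 of 3, Cdh5, above the filter level, and their part in the genotype results was not tested. Epithelial markers summed to 291 to 377 in mutant cells and 323 to 387 in wild-type cells, with 2 of 3, Epcam and Cdh1, above it. Blood and immune markers summed to 98.5 to 127 in mutant and 107 to 115 in wild-type cells, with 1 of 5 above. For skeletal muscle markers the sums were 69.0 to 103 and 71.6 to 82.3, with 0 of 3 above. The 5′ to 3′ signal ratio of the Actb control probes, a measure of RNA integrity, was 0.505, 0.683 and 0.661 at 0, 60 and 120 minutes in mutant cells and 0.579, 0.650 and 0.699 in wild-type cells. It was lowest at 0 minutes in both genotypes, and its part in the results was not tested. The same ratio of the Gapdh control probes was 0.954 to 1.03 on all 6 arrays. Lpar1 itself read 1496, 1514 and 1438 at 0, 60 and 120 minutes in mutant cells and 1335, 1290 and 1289 in wild-type cells, so its transcript was present in both genotypes. It was 0.18 log2 units higher in mutant cells (limma, adjusted p = 0.0207), where 10.4% of all genes were higher.

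Between genotypes 2 of the 4 genes passed. Averaged over the 3 times, Nr4a1 was 0.15 ± 0.041 (SE) log2 units lower in mutant cells (limma, adjusted p = 0.0260) and Nr4a3 was 0.43 ± 0.11 lower (limma, adjusted p = 0.0228). Of all genes tested, 8.92% were lower and 10.4% higher in mutant cells. Arc had a difference of -0.37 ± 0.14 that did not pass (limma, adjusted p = 0.0871). Nr4a2 had a difference of 0.06 ± 0.080 (limma, adjusted p = 0.666).

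The genotype difference of Nr4a1 was small but nearly constant. Mutant cells had 89.7%, 89.4% and 90.0% of the wild-type intensity at 0, 60 and 120 minutes. The call was lost without any 1 of the 6 arrays (limma, adjusted p from 0.0586 to 0.104) and with the arrays set to equal medians (limma, adjusted p = 0.0591). Leaving out either array of a time gave the same difference, since the other array of that time then adds nothing to it. The 6 fits therefore amount to 1 check for each of 3 times.

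For Nr4a3 the gap was wider at each later time. In bulk RNA, fewer responding cells and less RNA per cell cannot be told apart. Mutant cells had 80.7% of the wild-type intensity at 0 minutes, where both arrays were below the filter level, 69.5% at 60 minutes and 60.7% at 120 minutes. In log2(intensity + 16) the mutant minus wild-type difference was -0.09, -0.49 and -0.70. The genotype call was lost without either 60 minute or either 120 minute array (limma, adjusted p from 0.0692 to 0.0875), which is 1 check for each time.

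Arc showed a similar gap once it was induced. Mutant cells had 120% of the wild-type intensity at 0 minutes, 65.4% at 60 minutes and 60.5% at 120 minutes, with log2 differences of 0.14, -0.59 and -0.66. Without the mutant 0 minute array the genotype difference was -0.63 and passed (limma, adjusted p = 0.000102), as it did without the wild-type 0 minute array (limma, adjusted p = 9.96e-05). With an offset of 64 it was -0.33 and passed (limma, adjusted p = 0.0460). The other 12 of 15 alternatives did not pass, among them -0.36 with an offset of 1 (limma, adjusted p = 0.155), -0.26 without a 60 minute array (limma, adjusted p = 0.313 and 0.318) and -0.23 without a 120 minute array (limma, adjusted p = 0.251 and 0.259).

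Nr4a2 had no gap that held over its times and probe sets. By its brightest set, mutant cells had 123% of the wild-type intensity at 0 minutes, 106% at 60 minutes and 87.3% at 120 minutes. At 120 minutes all 4 Nr4a2 sets that rose at 60 minutes were lower in mutant cells. They had 87.3%, 83.9%, 71.9% and 87.6% of the wild-type intensity, while 1433423_at and 1433422_at had 140% and 191%. Among its 6 probe sets only 1433423_at passed in the genotype test, 0.39 ± 0.083 higher in mutant cells (limma, adjusted p = 0.0169), where 4.66% of all probe sets were higher. That set was above wild-type at all 3 times, at 120%, 147% and 140% of its intensity.

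**Figure D3:**
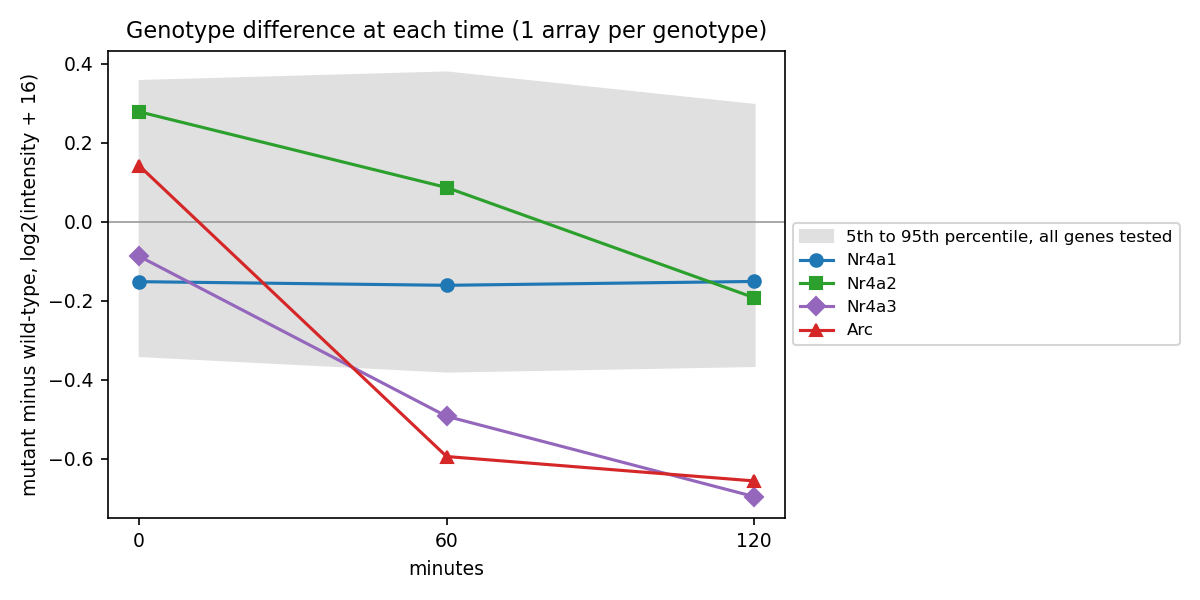
Mutant minus wild-type difference in log2(intensity + 16) at 0, 60 and 120 minutes for the 4 genes, 1 array per genotype at each time, with the 5th to 95th percentile of 10916 genes shaded. Nr4a3 and Arc lie inside the band at 0 minutes and under it at 60 and 120 minutes, while Nr4a1 stays near -0.15. The 0 minute arrays of Nr4a3 and Arc were below the filter level.

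The time response itself was set against genotype as the mutant change minus the wild-type change. With 1 array per genotype and time this difference has no test, and the additive model of the tests counts it as spread. Nr4a1 changed alike in both genotypes, by 3.65 in mutant and 3.65 in wild-type cells at 60 minutes and by 3.14 and 3.14 at 120 minutes. As ratios of intensity these were 12.9-fold in mutant and 13.0-fold in wild-type cells at 60 minutes, and 9.13-fold in mutant and 9.09-fold in wild-type cells at 120 minutes.

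Arc changed by 3.60 in mutant and 4.34 in wild-type cells at 60 minutes, a difference of -0.74. At 120 minutes Arc changed by 1.89 in mutant and 2.69 in wild-type cells, a difference of -0.80. Both 0 minute arrays behind these changes were below the filter level, with the mutant array the higher. Arc was tested only through its later arrays, so no share of genes with a difference as low is given. The second-hour fall was alike, -1.71 in mutant and -1.65 in wild-type cells.

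Nr4a3 changed by 3.37 in mutant and 3.78 in wild-type cells at 60 minutes, a difference of -0.41. At 120 minutes it changed by 4.20 in mutant and 4.80 in wild-type cells, a difference of -0.61. These too start from 0 minute arrays below the filter level, and no share is given for them. With an offset of 1 the differences were -0.26 at 60 and -0.45 at 120 minutes. The 5th to 95th percentile of all genes was -0.30 to 0.29 at 60 minutes and -0.35 to 0.27 at 120 minutes. Most of those genes changed far less over time, with a median absolute change of 0.12 at 60 and 0.20 at 120 minutes.

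For Nr4a2 the brightest set gave differences of -0.19 at 60 and -0.47 at 120 minutes, and 11.4% and 1.95% of genes were as low. Set 1450750_a_at gave -0.23 and -0.68, and 1447863_s_at gave 0.44 and -0.04. Set 1433423_at gave 0.27 and 0.21, 1450749_a_at gave 0.18 and 0.18, and 1433422_at gave -0.14 and 0.72. The Nr4a2 probe sets gave no single direction, and the mean of all 6 gave 0.055 at 60 and -0.014 at 120 minutes.

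Against the rest of the nuclear receptor superfamily, Nr4a1 and Nr4a2 rose more than each of the 22 other tested receptor genes at both times. Nr4a1 was ahead of Nr4a2 at both times. Nr4a3 also rose more than those 22, but it passed the filter only through its later arrays. Receptor genes as dim at 0 minutes that did not rise were left out by the same filter. No place is therefore given for Nr4a3. Of the 22 other tested receptors, of 41 measured, 1 rose and 1 fell at 60 minutes, where 7.34% of all genes rose and 10.7% fell. The median was -0.05, and that of all genes -0.07. Nr2f6, an orphan receptor of the COUP-TF family, rose by 0.60 (limma, adjusted p = 0.00149). Nr2c2, the testicular receptor TR4, fell by 0.28 (limma, adjusted p = 0.0137). Ppard, a fatty acid sensor, had 0.27 (limma, adjusted p = 0.113) and Vdr, the vitamin D receptor, -0.23 (limma, adjusted p = 0.0621).

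By 120 minutes 6 of the 22 rose and 9 fell, where 16.2% of all genes rose and 30.8% fell, and the median was -0.07, with -0.09 over all genes. Over the second hour 3 rose and 8 fell, where 10.2% of all genes rose and 15.0% fell. In mutant cells 1 was higher and 2 were lower, near the 10.4% and 8.92% of all genes. Rxra and Rxrb, whose products pair with Nur77 and Nurr1, had 60 minute differences of -0.20 (limma, adjusted p = 0.172) and -0.17 (limma, adjusted p = 0.207). At 120 minutes both fell, Rxra by 0.59 (limma, adjusted p = 0.000590) and Rxrb by 0.69 (limma, adjusted p = 0.000113). These 2 genes are given for their pairing with NR4A proteins and were picked after their values were known.

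**Figure D4:**
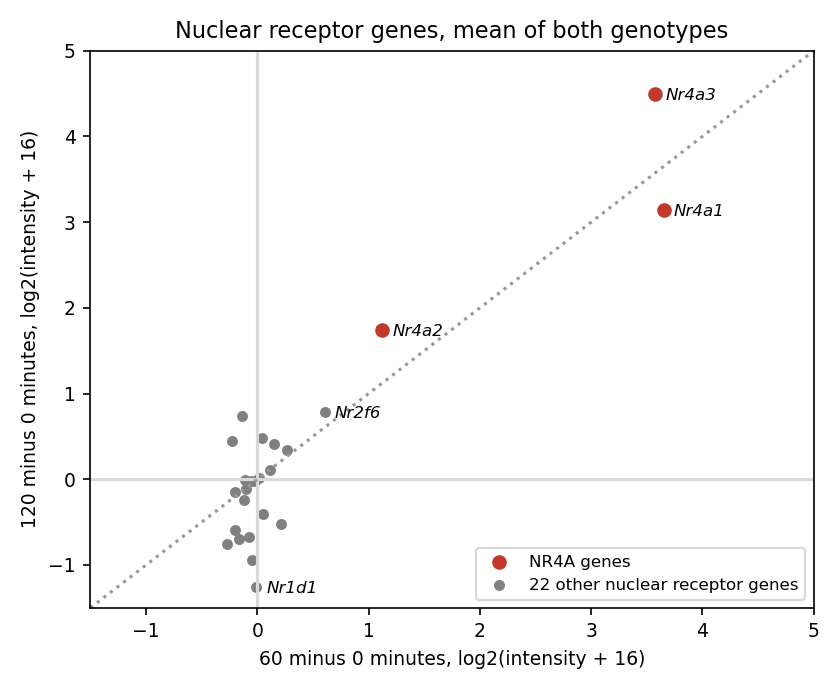
Change at 60 minutes (x axis) and at 120 minutes (y axis) from 0 minutes in log2(intensity + 16), mean of both genotypes, for 3 NR4A genes in red and 22 other nuclear receptor genes in grey, with a dotted line of equal change. The NR4A genes lie apart in the upper right, with Nr4a3 and Nr4a2 above the line and Nr4a1 under it.

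Of the factors known to drive or restrain NR4A and Arc transcription, 26 were tested. At 60 minutes 5 rose and 2 fell, where 7.34% of all genes rose and 10.7% fell, and the median of the list was -0.01. Srf, the serum response factor, rose by 2.39 ± 0.077 (SE) (limma, adjusted p = 1.68e-08). Mef2c, a MEF2 factor, rose by 0.69 (limma, adjusted p = 0.000160), and Nfatc1, a calcineurin-regulated factor, by 0.47 (limma, adjusted p = 0.000567). Sik1, a kinase that restrains CREB coactivators, fell by 0.54 (limma, adjusted p = 0.00212). At 120 minutes 10 rose and 7 fell, where 16.2% of all genes rose and 30.8% fell. Between 60 and 120 minutes 8 rose and 4 fell, where 10.2% and 15.0% of all genes did, and 2 were higher and 2 lower in mutant cells, near the 10.4% and 8.92% of all genes.

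Genes reported elsewhere as NR4A targets, mostly in endocrine, neural, liver or muscle cells, were largely too dim to test in these fibroblasts. Of 20 measured, 6 were tested. At 60 minutes 2 of the 6 rose, where 7.34% of all genes did: Star, a steroid-making cell's cholesterol carrier, by 0.85 (limma, adjusted p = 0.00297), and Bdnf, a neurotrophin, by 0.42 (limma, adjusted p = 0.00372). The wild-type 0 minute array of Star, at 23.7, was below the filter level. The muscle genes Pygm and Eno3 had -0.33 (limma, adjusted p = 0.0965) and -0.17 (limma, adjusted p = 0.0877). The median of the 6 was -0.01 at 60 and -0.01 at 120 minutes. At 120 minutes 1 of 6 rose and 1 fell (16.2% and 30.8% of all genes), in the second hour 1 fell (15.0%), and 1 was lower in mutant cells (8.92%).

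Most tested genes known from neuronal activity, many of them immediate early genes like the receptors and Arc, rose in the fibroblasts. Of 34 measured, 29 were tested, and the rest were too dim on average. That filter keeps dim genes that rise enough and leaves out dim genes that do not. Of the 29, 26 rose and 1 fell at 60 minutes, where 7.34% of all genes rose and 10.7% fell. The median was 1.94. Egr3 rose by 5.61 (limma, adjusted p = 7.53e-11) and Egr2 by 4.66 (limma, adjusted p = 3.84e-10), both zinc finger factors. Fosb, an AP-1 subunit, rose by 4.58 (limma, adjusted p = 3.40e-08), and Npas4, a factor best known from neurons, by 3.93 (limma, adjusted p = 4.12e-09). The mutant and wild-type 0 minute arrays were below the filter level for Fosb (33.3 and 24.1) and Npas4 (3.27 and 6.61). The size of these 2 rises therefore depends on the offset, and both genes passed the filter only through their later arrays.

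In the second hour 23 of the 29 fell and 2 rose, where 15.0% of all genes fell and 10.2% rose, and the median was -1.0. The 2 that rose, as Nr4a2 and Nr4a3 did, were Homer1, a synaptic scaffold (0.64, limma, adjusted p = 0.00115), and Inhba, the activin A subunit (0.48, limma, adjusted p = 0.0173). They are named because they were the only 2, after their values were seen. At 120 minutes 20 of 29 were above 0 minutes and 5 below, where 16.2% and 30.8% of all genes were, and the median was 0.92.

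Some of these genes were lower in mutant cells. In the genotype test 7 of 29 were lower and 1 was higher, where 8.92% of all genes were lower and 10.4% higher. The median was -0.14, and that of all genes 0.01. Without a test, 19 of 29 were lower in mutant cells at 0 minutes, 20 at 60 and 23 at 120 minutes, or 65.5%, 69.0% and 79.3%. Over all genes tested the shares were 45.6%, 41.6% and 52.6%. The mutant change was the smaller in 14 of 29 at 60 minutes and in 20 of 29 at 120 minutes, with shares over all genes of 44.0% and 57.5%.

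**Figure D5:**
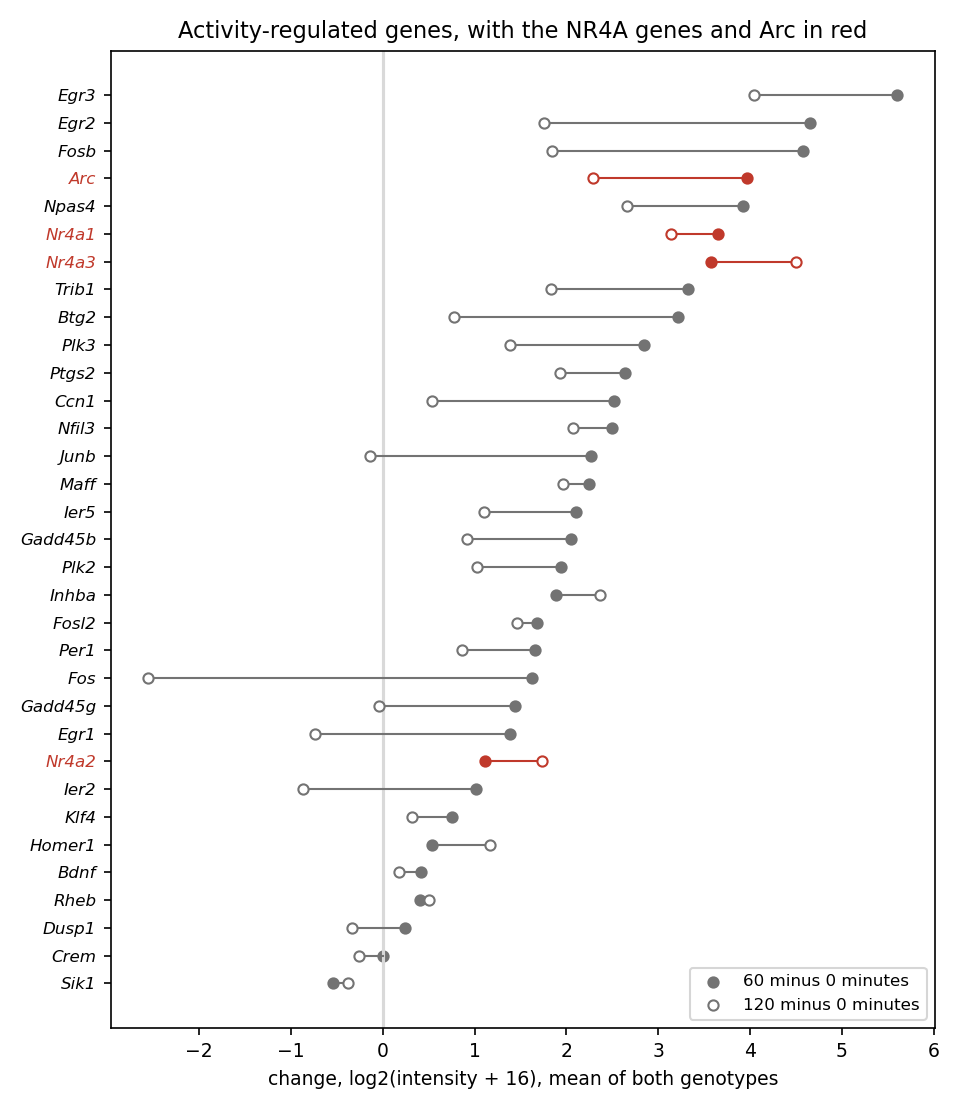
Change from 0 minutes in log2(intensity + 16), mean of both genotypes, at 60 minutes (filled circles) and 120 minutes (open circles) for 29 activity-regulated genes in grey and for the NR4A genes and Arc in red. For Nr4a2 and Nr4a3 the open circle lies right of the filled one, and for most grey genes it lies left.

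Genes of Arc's protein partners and of its turnover were called at 60 minutes about as often as all genes, of which 7.34% rose and 10.7% fell. Of 15 tested, limma called 1 higher and 0 lower, or 1 higher and 1 lower at an unadjusted p under 0.05, with a median of -0.09. Sh3gl1, an endophilin of endocytosis, rose by 0.29 (limma, adjusted p = 0.0161). Dnm2, the dynamin that cuts endocytic vesicles free, had -0.33 (limma, adjusted p = 0.0688), Camk2b, a calcium-dependent kinase, -0.26 (limma, adjusted p = 0.225), and Notch1 -0.15 (limma, adjusted p = 0.358). At 120 minutes 1 rose and 6 fell, where 16.2% of all genes rose and 30.8% fell. In the second hour limma called 0 in either direction (1 higher and 4 lower at an unadjusted p under 0.05), and 2 were higher and 2 lower in mutant cells (10.4% and 8.92% of all genes). Camk2b was among the lower ones, with -1.01 (limma, adjusted p = 0.000290).

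The 4 genes were also compared by the shape of their course over the 6 arrays, as a description only, since all share the same arrays. Pearson's r of the log2 values was 0.973 between Nr4a2 and Nr4a3, 0.946 between Nr4a1 and Arc, 0.944 between Nr4a1 and Nr4a3 and 0.872 between Nr4a1 and Nr4a2. With Arc it was 0.810 for Nr4a3 and 0.693 for Nr4a2, the lowest of the 6 pairs. Among 984 genes with a range of at least 1 log2 unit, the 5 most like Nr4a1 were Fosl2, Trim16, Srf, Nfil3 and Errfi1, with r from 0.997 to 0.9995. For Nr4a2 they were Lbh, Foxn2, S1pr3, Dusp4 and Azin1, with r from 0.993 to 0.997. For Nr4a3 they were Vcl, Plaur, Slc7a1, Tpm1 and Sdc4, with r from 0.995 to 0.999, and for Arc they were Arf2, Phlda1, Ier5, Csrnp1 and Smad7, with r from 0.992 to 0.995.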

How the data were processed

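RNA of NIH3T3 cells was measured on 6 arrays, 1 for each genotype and time. The values deposited by the authors are 1 intensity per probe set on a linear scale. The submitters' processing notes name PLIER, which summarises the probes of a set, and Affymetrix Power Tools (version 1.14.3.1). Background correction and scaling between arrays are not given in the sources used here. The median intensity was 34.1 to 37.3.

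The array holds 45101 probe sets. Beside 64 controls, 34945 had 1 gene, 932 several and 9160 none, by the platform annotation, and 34741 matched a RefSeq gene. Intensities were used as log2(intensity + 16). Each gene was taken by its brightest probe set, and genes under the 40th percentile of mean level (39.2) were left out, which left 10916. limma 3.58.1 in R 4.3.3 fitted genotype and time as additive terms over all arrays, with 2 residual degrees of freedom, to which a trended empirical Bayes step added 7.77. Tests were two-sided, with Benjamini-Hochberg adjustment over all genes within a contrast, and passed at 0.05. Time pairs the arrays of the genotypes, as the labels give it. The procedure was tested on simulated data. Alternatives changed the offset, filter, probe-set rule, scaling, shrinkage, model terms and arrays.

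The genes and lists were chosen with earlier results of these data known. All 4 genes are named with every probe set. Of each list up to 4 genes are named by size of the 60 minute change, those that passed first, and the 5 genes most like each member by Pearson's r.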

Additional observations from a re-analysis of the deposited data

Results flagged for a closer look

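In 3 dim probe sets the mutant and the wild-type array moved in opposite directions from 0 minutes. With 1 array per genotype and time the difference was not tested. For Nr4a2 set 1433422_at the mutant change minus the wild-type change at 120 minutes was 0.72, from 0.35 in mutant and -0.37 in wild-type cells. For Nr4a3 set 1421080_at it was 0.26 at 120 minutes, and for Nr4a3 set 1421079_at it was -0.13 at 60 and -0.15 at 120 minutes. Both Nr4a3 sets were below the filter level on every array.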

How the results depend on the processing

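Over 12 time contrasts of the 4 genes, 182 of 183 alternatives kept direction and call. The exception was Nr4a3 in the second hour, 0.93 with time alone in the model (limma, adjusted p = 0.0746). Many of these alternatives, such as those of filter, shrinkage and model terms, could change only the p-value and not the difference. The 183 are therefore not separate checks. Nr4a3 fell under the filter, and was not tested, with the mean of all probe sets and with the filter at the 60th percentile. Arc was not tested with that stricter filter. For these genes those settings are in none of the counts of alternatives, here or between genotypes. Over the 4 genotype contrasts 40 of 61 alternatives kept direction and call, and Nr4a2, which passed in none, turned to -0.05 without either 0 minute array. Its range with 1 array left out was -0.053 to 0.18. Leaving out either array of a time gave the same genotype difference, so these 61 include repeats. With no replicate block, that is with genotype alone and no time terms in the model, 89 genes differed between genotypes, against 2112 with them. No gene of the 4 passed: Nr4a1 had -0.15 (limma, adjusted p = 0.999) and Nr4a3 -0.43 (limma, adjusted p = 0.997). That model counts the change over time as spread, with an SE of 1.28 for Nr4a1 and 1.54 for Nr4a3. For genes with so large a change over time it therefore cannot decide whether the genotypes differ. Without the shrinkage trend Nr4a1 had -0.15 (limma, adjusted p = 0.104) and Nr4a3 -0.43 (limma, adjusted p = 0.0586), and 1397 genes passed. Nr4a1 also lost its call with probe sets as features, at -0.15 (limma, adjusted p = 0.0511), and with equal medians, at -0.14. Leaving out 1 array at a time gave -0.16 to -0.15 for Nr4a1, -0.59 to -0.29 for Nr4a3 and -0.63 to -0.23 for Arc, which passed with an offset of 64 at -0.33.

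Genes passing numbered 1969 at 60 minutes, 5130 at 120 minutes and 2746 in the second hour. With probe sets as features they were 3763, 8945 and 4491, as more features were tested, and with time alone in the model 585, 2772 and 1007. Leaving out 1 array at a time gave 1156 to 2516 at 60 minutes, and 1373 to 2163 between genotypes.

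The response difference of Nr4a1 changed sign near 0: 0.024 at 60 minutes with equal medians, and -0.012 with an offset of 64 and -0.0014 with equal medians at 120 minutes. For Nr4a2 it was 0.055 at 60 and -0.014 at 120 minutes with the mean of all probe sets. An offset of 1 gave Nr4a3 -0.26 at 60 and -0.45 at 120 minutes and Arc -0.97 at 120 minutes, where an offset of 64 gave Arc -0.57. The cause was not tested. Genes with an array near the filter level, Nr4a3 and Arc at 0 minutes, have log2 changes that depend on the offset.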

Other observations

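The protein-coding genes beside the receptors and Arc were looked at by position alone, up to 2 on each side in the RefSeq order, after the values of the 4 genes were known. Grasp, a scaffold protein gene next to Nr4a1, read 215, 276 and 784 at 0, 60 and 120 minutes in mutant cells and 203, 271 and 875 in wild-type cells. It rose by 0.36 at 60 minutes (limma, adjusted p = 0.0108) and by 1.91 ± 0.079 (SE) at 120 minutes (limma, adjusted p = 8.60e-08), so its highest arrays were those at 120 minutes, while Nr4a1 was highest at 60. Stx17, a syntaxin gene next to Nr4a3, fell by 0.52 at 60 minutes (limma, adjusted p = 0.00369) and by 0.70 at 120 minutes (limma, adjusted p = 0.000202). Jrk, next to Arc, fell by 0.42 at 60 minutes (limma, adjusted p = 0.0114) and had 0.01 at 120 minutes (limma, adjusted p = 0.960). Atg101, on the other side of Nr4a1, had -0.03 at 60 minutes (limma, adjusted p = 0.825). The other tested neighbours, Acvr1b, Galnt13, Alg2, Sec61b and Erp44, passed neither at 60 nor at 120 minutes, and nor did Atg101. Of all genes tested, 7.34% rose and 10.7% fell at 60 minutes, and 16.2% rose and 30.8% fell at 120 minutes.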
